A study of Homo sapiens with 9 samples.

Results

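The genes of the Wnt pathway's own signalling parts were followed in MDA-MB-231 cells, an established human triple-negative breast cancer line, with or without depletion of the aryl hydrocarbon receptor gene AHR. Members were chosen by symbol: the Wnt ligands, the Frizzled receptors, the Dickkopf and secreted Frizzled-related antagonists, the co-receptors LRP5 and LRP6, the alternative receptors ROR1 and ROR2, the receptor-removing ligases RNF43 and ZNRF3, CTNNB1 with the destruction-complex genes AXIN1, AXIN2 and APC, and the 4 TCF/LEF factors. This gave 51 genes of the 60649 listed, and 30 of the 51 had enough counts to be tested. The other 21 did not reach the count minimum and are described by their counts. RNA sequencing covered 9 libraries in 3 groups of 3 replicates: PLKO-GFP, which carried the control vector, and shAHR#2 and shAHR#3, which each carried a different short hairpin RNA against AHR. The study's methods number its hairpins #1 and #2, and which of them each label stands for was not settled, so the labels' numbers are used. All 9 came from this line and were labelled as proliferating, with no Wnt ligand, inhibitor or AHR agonist named for any group. Hairpins were delivered by lentivirus and the puromycin-resistant survivors were pooled, so each group is a selected pool and not a clone. Nothing in the labels says whether the replicates were separate cultures, and the p-values measure only the spread between these libraries.

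Wnt proteins are secreted lipid-modified ligands that bind a Frizzled receptor together with LRP5 or LRP6. Without ligand, a complex built on the AXIN proteins and APC marks beta-catenin, the product of CTNNB1, for degradation. With ligand, beta-catenin accumulates and joins TCF/LEF factors at target genes, among which AXIN2 and DKK1 are widely used as readouts. Dickkopf proteins block LRP5 and LRP6, secreted Frizzled-related proteins bind Wnts, and RNF43 and ZNRF3 remove Frizzleds from the cell surface. Some ligands, WNT5A and WNT11 among them, act mainly through branches that do not need beta-catenin, often with ROR1 or ROR2. The aryl hydrocarbon receptor is a ligand-activated transcription factor that binds DNA at a short core motif.

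Total counts were 17407688 to 19509030 per library with PLKO-GFP, 15991396 to 19112459 with shAHR#2 and 19436825 to 20374460 with shAHR#3. Values below are CPM, the read count of a gene scaled to the TMM-adjusted size of its library, and a call is an adjusted p under 0.05 in the quasi-likelihood test of edgeR, adjusted over 14274 genes by Benjamini-Hochberg. AHR (chr7:16916359-17346152) measured 114, 118 and 121 CPM with PLKO-GFP, 42.5, 40.4 and 41.9 CPM with shAHR#2, and 46.3, 52.1 and 44.5 CPM with shAHR#3. Every shAHR library lay below every control library, with log2 fold changes of -1.50 ± 0.05 (SE, adjusted p = 1.05e-25) and -1.31 ± 0.05 (adjusted p = 4.95e-24). The residual AHR level was 0.19 ± 0.05 higher on the log2 scale with shAHR#3 than with shAHR#2 (adjusted p = 0.00283). The labels call the cells mammary epithelial: the 5 epithelial keratin and adhesion genes checked summed to 677 to 713 CPM in the control libraries, while the mesenchymal genes VIM, FN1, SPARC and CDH2 summed to 3434 to 3469 CPM and the hormone receptor genes ESR1 and PGR stayed at or near 0. With shAHR#2 and shAHR#3 the epithelial sum was 755 to 783 and 859 to 913 CPM, and the mesenchymal sum 6200 to 6382 and 5021 to 5072 CPM. Of the 5 epithelial genes, 2 were called higher with shAHR#2 and 4 with shAHR#3, beside 32.6% and 26.9% of all genes tested. CDH1 had means of 0.909, 1.80 and 4.16 CPM in the 3 groups (adjusted p = 0.00165 and 2.47e-10), while EPCAM passed with neither hairpin. Of the basal breast markers, TP63 had means of 2.65, 4.94 and 5.23 CPM and was higher with both hairpins, and KRT5 and KRT14 were untested. VIM had means of 2634, 3875 and 3330 CPM in the 3 groups, and FN1 of 814, 2398 and 1706 CPM. SPARC, at 1.77, 1.09 and 2.40 CPM, was lower with shAHR#2 (adjusted p = 0.0254), and CDH2 was untested. Markers of other cell types moved with the hairpins, in both directions. Of the leukocyte markers, PTPRC had means of 0.119, 1.38 and 1.00 CPM in the 3 groups and LYZ of 0.536, 2.99 and 1.74 CPM, while CD14 had means of 0.957, 0.356 and 0.639 CPM and was lower with shAHR#2 (adjusted p = 0.00348), and CD3E was at 0 throughout. The 3 endothelial markers summed to 2.15 to 2.71, 10.4 to 12.7 and 12.04 to 13.3 CPM, nearly all from PECAM1. The 4 fibroblast markers summed to 5.14 to 7.34, 8.86 to 10.9 and 10.5 to 12.8 CPM, nearly all from COL1A1. Their part in the results below was not tested. In bulk RNA, fewer cells that express a gene and less of its RNA per cell cannot be told apart.

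With shAHR#2, 21 of the 30 tested members differed from PLKO-GFP, 14 of them higher and 7 lower. That share is near the background, since 65.8% of all genes tested were called in this comparison (32.6% higher and 33.2% lower). With shAHR#3, 20 members differed, 12 higher and 8 lower, against 54.4% of all genes (26.9% higher and 27.5% lower). Only 2 members, TCF7L1 and WNT11, were called with a change of at least 2-fold with either hairpin, a size that 11.8% of all genes reached with shAHR#2 and 6.73% with shAHR#3. WNT11 passed the count minimum only through the shAHR groups, and it enters the counts, medians and ranges given here. When only the groups compared were fitted, WNT11 dropped out. Then 20 of 29 members were called with shAHR#2 and 19 of 29 with shAHR#3. The median log2 fold change over the tested members was 0.24 with shAHR#2 and 0.26 with shAHR#3, beside medians of -0.0032 and -6.9e-05 over all genes. Library ranges were apart from those of PLKO-GFP for 23 of the 30 members with each hairpin, beside 68.2% of all genes tested with shAHR#2 and 58.7% with shAHR#3. The same 3 control libraries serve both comparisons.

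**Figure D1:**
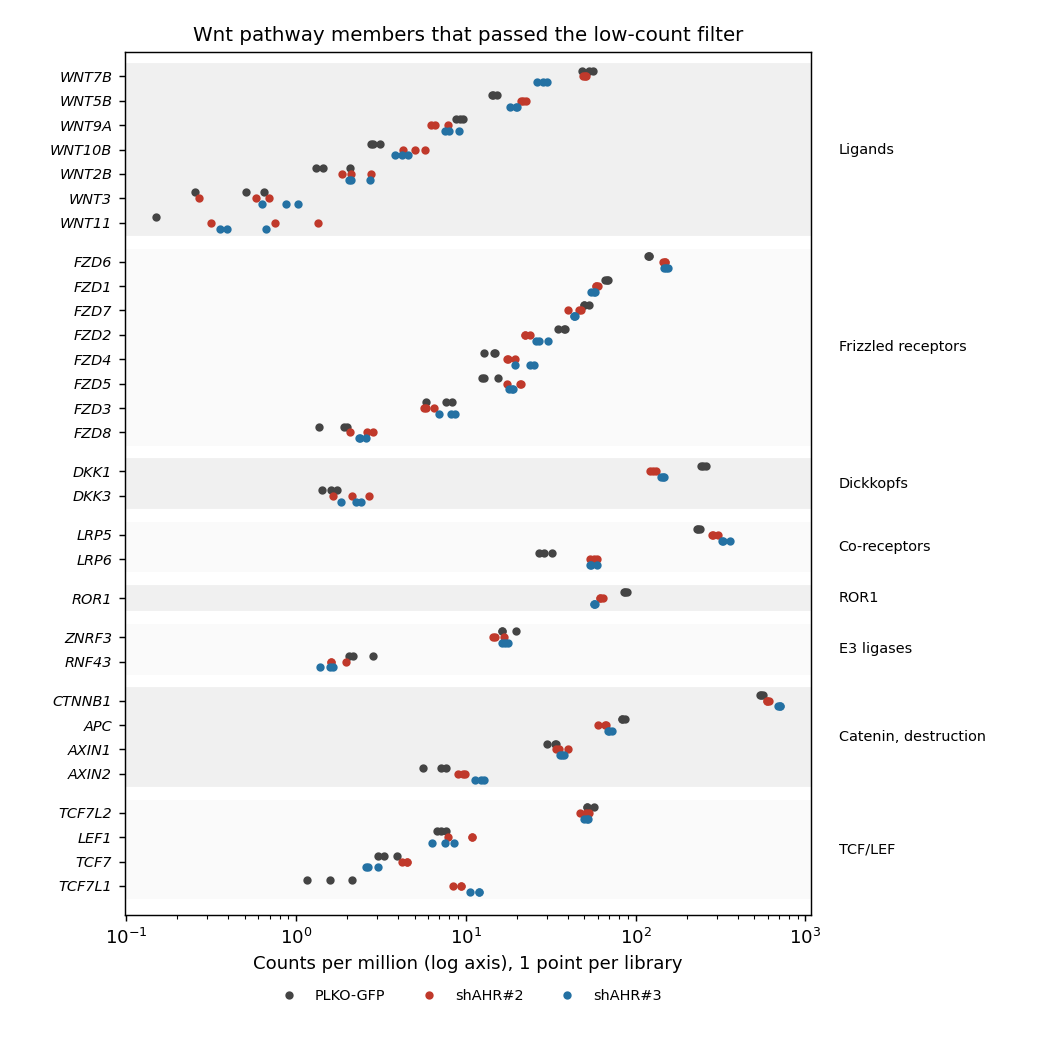
Level of each tested member in every library, in CPM on a log axis, grouped by role, with 1 point per library (grey PLKO-GFP, red shAHR#2, blue shAHR#3). TCF7L1 and DKK1 show the 2 shAHR groups well away from the 3 control points, on the right and on the left of them, while most other members shift little; the 2 control libraries of WNT11 without a count cannot be drawn on this axis.

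The core promoters of 3 members are shown because these genes carry the clearest changes among the TCF/LEF factors, the antagonists and the alternative receptors. Each line is the 250 bases before the annotated start (RefSeq, GRCh38.p14), written 5′ to 3′ on the gene's strand, with capitals marking the aryl hydrocarbon receptor core GCGTG or the TCF motif CTTTGA on either strand.
TCF7L1 (chr2:85133142-85133391, plus strand): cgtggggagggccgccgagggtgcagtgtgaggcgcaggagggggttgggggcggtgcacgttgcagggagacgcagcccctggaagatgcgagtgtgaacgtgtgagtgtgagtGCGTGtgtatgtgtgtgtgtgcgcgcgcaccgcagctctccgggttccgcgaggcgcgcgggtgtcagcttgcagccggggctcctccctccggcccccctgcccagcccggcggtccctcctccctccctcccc
DKK1 (chr10:52314031-52314280, plus strand): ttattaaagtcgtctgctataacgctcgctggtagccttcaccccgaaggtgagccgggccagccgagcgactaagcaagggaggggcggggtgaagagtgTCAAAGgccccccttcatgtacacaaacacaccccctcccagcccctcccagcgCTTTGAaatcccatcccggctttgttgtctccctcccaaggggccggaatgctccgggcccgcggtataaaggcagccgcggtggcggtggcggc
ROR1 (chr1:63773767-63774016, plus strand): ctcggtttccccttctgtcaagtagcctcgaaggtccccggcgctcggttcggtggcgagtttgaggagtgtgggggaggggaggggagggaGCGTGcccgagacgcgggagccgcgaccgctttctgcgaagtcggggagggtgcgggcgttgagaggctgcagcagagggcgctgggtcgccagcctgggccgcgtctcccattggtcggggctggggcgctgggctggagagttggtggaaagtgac
TCF7L1 holds 1 GCGTG, which begins 135 bases before the start, and ROR1 holds 1 that begins 158 bases before it. DKK1 holds no GCGTG but has CTTTGA on opposite strands, beginning 149 and 95 bases before the start. RefSeq windows were matched for 36 of the 51 members. GCGTG was present in a window of 15 of these members and in 32.2% of all 35116 windows, and CTTTGA in DKK1 alone of the 36 and in 11.2% of all windows. Some members have several windows and are counted once, so counts of members and shares of single windows are unlike measures. GCGTG and CTTTGA did not overlap in any window shown, and a match is a description of the letters only.

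Among the ligands, WNT7B was the most abundant per length, WNT5B and WNT10B rose with both hairpins, WNT11 rose from near 0, and WNT7B fell with shAHR#3 while its shAHR#2 values overlapped the control. Of the 19 ligand genes 7 were tested. Each hairpin gave 3 called higher and 1 called lower, and WNT2B and WNT3 passed with neither hairpin. The 3 include WNT11, which passed the count minimum only through the shAHR groups. The share called was 57.1% with each hairpin, beside 65.8% and 54.4% of all genes.

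WNT7B (chr22:45920366-45977162) measured 48.3, 53.2 and 56.4 CPM with PLKO-GFP, 51.2, 50.6 and 49.2 CPM with shAHR#2, and 26.2, 28.3 and 29.98 CPM with shAHR#3. The shAHR#3 libraries all lay below the other 6, and the other 2 groups overlapped. Its log2 fold change was -0.90 ± 0.06 with shAHR#3 (1.87-fold lower, adjusted p = 8.61e-16) and -0.07 ± 0.06 with shAHR#2 (adjusted p = 0.31). WNT7B is one of the ligands able to signal through beta-catenin. Per kilobase of exon its control level was 10.4 ± 0.801 CPM (SD, n = 3), above WNT5B at 3.47 ± 0.133 and WNT9A at 2.30 ± 0.111, whose ranges do not meet.

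WNT5B (chr12:1529891-1647212), a ligand of the beta-catenin-independent branch, had a mean of 14.7 ± 0.564 CPM (SD, n = 3) with PLKO-GFP, 21.8 ± 0.678 CPM with shAHR#2 and 19.3 ± 0.957 CPM with shAHR#3. The log2 rises of 0.57 ± 0.08 (adjusted p = 6.13e-08) and 0.39 ± 0.08 (adjusted p = 5.24e-05) exceeded the spread between libraries. WNT10B (chr12:48965340-48971735), a beta-catenin-dependent ligand, had means of 2.92 ± 0.196, 5.02 ± 0.745 and 4.20 ± 0.391 CPM, with log2 rises of 0.77 ± 0.17 (adjusted p = 0.000114) and 0.52 ± 0.17 (adjusted p = 0.0078). Both genes lie on chromosome 12, where the tested genes within 5 Mb had median log2 fold changes of 0.21 and 0.26 around WNT5B and 0.25 and 0.30 around WNT10B. WNT9A fell with shAHR#2 from 9.20 ± 0.443 to 6.90 ± 0.875 CPM (log2 -0.42 ± 0.12, adjusted p = 0.00222), and its shAHR#3 mean was 8.19 ± 0.806 CPM (adjusted p = 0.208). The 68 genes tested within 5 Mb of WNT9A had a median of -0.38 with shAHR#2. WNT2B had means of 1.62 ± 0.413, 2.26 ± 0.469 and 2.29 ± 0.377 CPM, and WNT3 of 0.470 ± 0.201, 0.514 ± 0.221 and 0.844 ± 0.198 CPM, with overlapping libraries in each comparison.

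WNT11 (chr11:76186325-76210736), a ligand best known for cell movements outside the beta-catenin branch, had 0, 3 and 0 counts with PLKO-GFP, 14, 21 and 5 counts with shAHR#2, and 13, 7 and 8 counts with shAHR#3. Every shAHR library had more counts than any control library. The ratio of depth-scaled group totals was 15.3 with shAHR#2 (95% counting interval 4.88 to 77.4) and 9.02 with shAHR#3 (2.79 to 46.4). The edgeR test, a separate estimate, gave log2 fold changes of 3.78 (adjusted p = 3.3e-05) and 3.02 (adjusted p = 0.00185). All 3 control counts came from PLKO-GFP replicate 2, and without that library the fitted log2 fold changes moved from 3.78 to 6.89 and from 3.02 to 6.13, values that rest on control libraries at 0 and are no bound. WNT11 passed the count minimum only through the shAHR groups. The intervals pool the 3 libraries of a group, so they cover counting error only and leave out the spread between replicates. Reads without molecular identifiers are also not independent molecules. The level remained low in the knockdown groups, at 0.805 ± 0.518 and 0.473 ± 0.171 CPM (SD, n = 3), and an exon of WNT11 overlaps a gene on the other strand whose reads can be kept apart only if strand was used in the counting.

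WNT5A (chr3:55465715-55490539), the best-known ligand of the beta-catenin-independent branch, did not reach the count minimum. It had 7, 9 and 9 counts with PLKO-GFP, 8, 9 and 10 with shAHR#2, and 4, 9 and 4 with shAHR#3, and the groups overlapped. The ratio to PLKO-GFP was 1.24 with shAHR#2 (95% counting interval 0.693 to 2.23) and 0.657 with shAHR#3 (0.333 to 1.27), so no difference was detectable at this depth. Of the 21 untested members, 8 had no count in any library (WNT16, WNT6, WNT7A, WNT8A, FZD10, DKK4, SFRP2 and SFRP5) and 9 had at most 3 counts in every library (WNT10A, WNT2, WNT3A, WNT4, WNT8B, WNT9B, FZD9, DKK2 and SFRP4). Beside WNT5A, WNT1 reached 4 counts in a library, ROR2 4 and SFRP1 8. A count of 0 in a library allows up to 3 counts there. All 4 secreted Frizzled-related antagonists were therefore below the minimum, and DKK1 and DKK3 were the only secreted antagonists among the members that could be tested.

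Among the Frizzled receptors, the membrane proteins that bind Wnts, 8 of 10 were tested. FZD4, FZD5 and FZD6 rose and FZD1, FZD2 and FZD7 fell with both hairpins, FZD8 passed with shAHR#2 only, and FZD3 with neither hairpin. The changes were small, the largest being a 1.63-fold fall of FZD2 and a 1.62-fold rise of FZD4.

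FZD6 (chr8:103298433-103332866) was the most abundant tested Frizzled per length, at 29.3 ± 0.225 CPM per kilobase in the control (SD, n = 3). Next came FZD7 at 11.1 ± 0.449, then FZD2 at 9.82 ± 0.517 and FZD1 at 9.77 ± 0.199, which did not differ beyond their spread, and FZD5 at 1.94 ± 0.240 and FZD4 at 1.91 ± 0.143, which did not either. FZD3 and FZD8 were the lowest of those tested, at 0.526 ± 0.0917 and 0.435 ± 0.0849 CPM per kilobase. By library FZD6 measured 119, 118 and 120 CPM with PLKO-GFP, 149, 146 and 149 CPM with shAHR#2, and 151, 155 and 146 CPM with shAHR#3. All 6 shAHR libraries exceeded all control libraries, by 0.31 ± 0.03 (adjusted p = 1.42e-10) and 0.34 ± 0.03 (adjusted p = 2.12e-11) on the log2 scale.

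FZD4, also the receptor for norrin, rose from 14.1 ± 1.06 CPM to 18.2 ± 1.009 CPM with shAHR#2 (log2 0.37 ± 0.09, adjusted p = 0.000696) and to 22.9 ± 3.01 CPM with shAHR#3 (log2 0.70 ± 0.09, adjusted p = 1.43e-08). FZD5 rose from 13.6 ± 1.69 to 19.8 ± 2.04 and 18.5 ± 0.521 CPM, by 0.53 ± 0.09 (adjusted p = 2.91e-06) and 0.44 ± 0.09 (adjusted p = 6.94e-05). In the other direction, FZD2 fell from 37.1 ± 1.95 to 22.9 ± 1.012 and 27.9 ± 2.41 CPM, with log2 fold changes of -0.70 ± 0.07 (adjusted p = 2.79e-11) and -0.41 ± 0.07 (adjusted p = 1.39e-06). The 171 genes tested within 5 Mb of FZD2 had positive medians of 0.19 and 0.15 in these comparisons, and the 45 around FZD1 of 0.31 and 0.05. FZD1 fell by less, from 67.3 ± 1.37 to 59.1 ± 0.943 and 56.6 ± 1.65 CPM (adjusted p = 0.000318 and 5.89e-06), and FZD7 from 51.0 ± 2.06 to 44.5 ± 4.11 and 43.4 ± 0.293 CPM (adjusted p = 0.0018 and 0.00045). The FZD7 call with shAHR#2 (log2 -0.20 ± 0.06) was lost without shAHR#2 replicate 1, where the log2 fold change was -0.12 (adjusted p = 0.0682). FZD8, at 1.76 ± 0.344 CPM in the control, was 0.52 ± 0.23 higher with shAHR#2 (adjusted p = 0.0442) and 0.47 ± 0.22 higher with shAHR#3 (adjusted p = 0.0708). Its call was lost with DESeq2 (adjusted p = 0.0858), with no filter on low counts (adjusted p = 0.0662) and without PLKO-GFP replicate 3 (log2 0.36, adjusted p = 0.204), shAHR#2 replicate 1 (adjusted p = 0.11), shAHR#2 replicate 2 (adjusted p = 0.14) or shAHR#3 replicate 3 (adjusted p = 0.05). FZD3 measured 7.25 ± 1.26, 6.00 ± 0.429 and 7.91 ± 0.863 CPM and did not pass with either hairpin (adjusted p = 0.0743 and 0.403).

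DKK1, which encodes a secreted blocker of LRP5 and LRP6, fell with both hairpins, and the other tested antagonist, DKK3, passed with neither. The co-receptors LRP5 and LRP6 rose with both hairpins. DKK1 was the most abundant antagonist by far, at 113 ± 3.86 CPM per kilobase in the control against 0.133 ± 0.0139 for DKK3.

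DKK1 (chr10:52314281-52318042) measured 248, 260 and 243 CPM with PLKO-GFP, 126, 122 and 132 CPM with shAHR#2, and 145, 147 and 141 CPM with shAHR#3. The 3 groups were fully separate, with shAHR#2 lowest. The fall was 1.98-fold with shAHR#2 (log2 -0.98 ± 0.03, adjusted p = 5.83e-25) and 1.73-fold with shAHR#3 (log2 -0.79 ± 0.03, adjusted p = 4.83e-22). Other genes near DKK1 were lower too: the 23 tested within 5 Mb had a median log2 fold change of -0.68 with shAHR#2 and -0.35 with shAHR#3, and the whole of chromosome 10 had medians of -0.32 and -0.15 over 573 genes. The antisense gene PRKG1-AS1, an exon of which overlaps DKK1, had 33 to 41 counts with PLKO-GFP, 17 to 21 with shAHR#2 and 16 to 27 with shAHR#3. The part of the neighbourhood in the fall of DKK1 was not tested. DKK3, a divergent family member, had means of 1.59 ± 0.167, 2.16 ± 0.526 and 2.17 ± 0.285 CPM and did not pass (adjusted p = 0.107 and 0.105).

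LRP6 (chr12:12116025-12267044) measured 32.2, 29.1 and 26.9 CPM with PLKO-GFP, 56.5, 59.1 and 54.0 CPM with shAHR#2, and 58.9, 54.7 and 54.1 CPM with shAHR#3. The 2 shAHR groups overlapped each other and lay wholly above the control. Its rise was 1.93-fold (log2 0.95 ± 0.06, adjusted p = 8.98e-17) and 1.91-fold (log2 0.93 ± 0.06, adjusted p = 2.11e-16). Around LRP6 the 62 genes tested within 5 Mb had medians of 0.39 and 0.29. LRP5 (chr11:68312591-68449275) measured 233, 241 and 231 CPM with PLKO-GFP, 287, 306 and 281 CPM with shAHR#2, and 322, 328 and 357 CPM with shAHR#3. All 3 groups were apart, with rises of 0.31 ± 0.03 (adjusted p = 4.01e-10) and 0.51 ± 0.03 (adjusted p = 6.79e-16), and the 191 genes tested around it had medians of -0.06 and -0.03. Per kilobase, LRP5 stood well above LRP6 in the control, at 38.0 ± 0.790 against 2.84 ± 0.260 CPM.

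**Figure D2:**
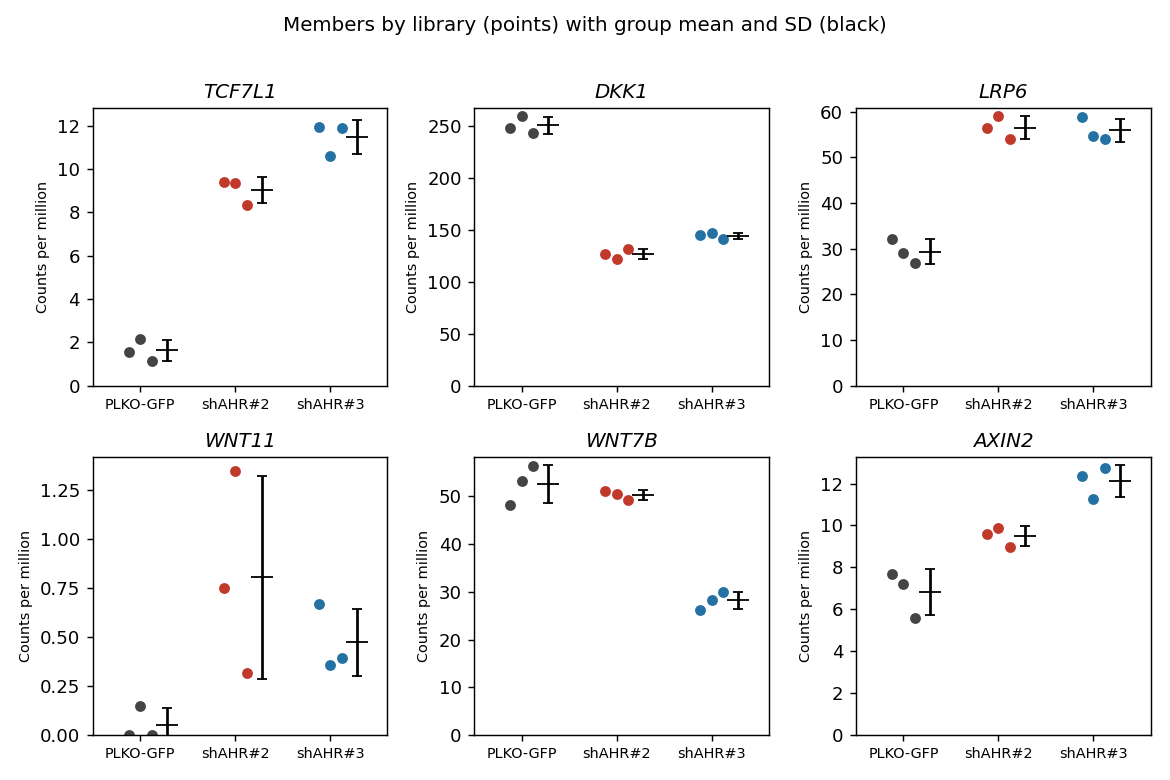
CPM of 6 members in each library (points), with the group mean and SD of 3 libraries in black, each panel starting at 0. DKK1 is near 250 in the control and between 122 and 147 in the 6 shAHR libraries. LRP6 and TCF7L1 are higher in the 6 shAHR libraries than in the control, and WNT7B is lower in shAHR#3 alone. The lower error bar of WNT11 in the control is cut at 0.

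ROR1, a receptor tyrosine kinase-like protein that binds WNT5A, fell with both hairpins, and its relative ROR2 was at most 4 counts in any library. ROR1 (chr1:63774017-64181498) measured 85.3, 89.0 and 86.7 CPM with PLKO-GFP, 62.0, 61.5 and 64.0 CPM with shAHR#2, and 56.7, 57.8 and 56.6 CPM with shAHR#3, and no 2 groups overlapped. The log2 fold changes were -0.48 ± 0.04 (adjusted p = 7.15e-13) and -0.61 ± 0.04 (adjusted p = 1.39e-15), and the 31 genes tested within 5 Mb had medians of -0.17 and -0.20. Of the ligases that take Frizzleds off the membrane, ZNRF3 (chr22:28883572-29057488) measured 16.4, 19.9 and 16.3 CPM, then 14.8, 16.8 and 14.4 CPM, then 17.0, 16.4 and 17.6 CPM in the same group order. These ranges overlapped and neither comparison passed (adjusted p = 0.0528 and 0.685). RNF43, which is also a TCF target in intestine, had means of 2.35 ± 0.416, 1.73 ± 0.204 and 1.55 ± 0.140 CPM. It passed with shAHR#3 (log2 -0.59 ± 0.23, adjusted p = 0.0276) and not with shAHR#2 (adjusted p = 0.096). The RNF43 call was lost with DESeq2 (adjusted p = 0.0675) and without PLKO-GFP replicate 1 (log2 -0.45, adjusted p = 0.155), shAHR#3 replicate 1 (adjusted p = 0.0953) or shAHR#3 replicate 2 (adjusted p = 0.0544).

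CTNNB1, AXIN1 and AXIN2 rose and APC fell with both hairpins. CTNNB1 (chr3:41194741-41260096), which encodes beta-catenin, measured 549, 562 and 539 CPM with PLKO-GFP, 593, 595 and 608 CPM with shAHR#2, and 692, 705 and 709 CPM with shAHR#3. The groups did not overlap, and the rises were small: 1.09-fold (log2 0.12 ± 0.03, adjusted p = 6.56e-05) and 1.28-fold (log2 0.35 ± 0.02, adjusted p = 8.78e-15). Beta-catenin is regulated mainly by protein turnover, which these RNA counts do not measure.

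AXIN2 (chr17:65528563-65561648), a scaffold of the destruction complex and a common readout of TCF activity, measured 7.68, 7.19 and 5.57 CPM with PLKO-GFP, 9.60, 9.89 and 8.98 CPM with shAHR#2, and 12.3, 11.3 and 12.7 CPM with shAHR#3. Each group lay above the one before it, with rises over the control of 1.40-fold (log2 0.48 ± 0.12, adjusted p = 0.000551) and 1.78-fold (log2 0.83 ± 0.11, adjusted p = 4.91e-08). The 63 genes tested around AXIN2 had medians of 0.18 and 0.12. AXIN1, the constitutive scaffold, rose by 0.17 ± 0.06 (adjusted p = 0.021) and 0.18 ± 0.06 (adjusted p = 0.0133) from 32.5 ± 2.04 CPM to 36.4 ± 2.99 and 36.9 ± 1.24 CPM. Both AXIN1 calls were lost without PLKO-GFP replicate 2 (log2 0.12 and 0.13, adjusted p = 0.15 and 0.116), and the shAHR#2 call also without shAHR#2 replicate 1 (log2 0.10, adjusted p = 0.219). APC (chr5:112707518-112846239), the tumour suppressor of the complex, fell from 84.5 ± 2.28 CPM to 64.5 ± 3.56 and 70.6 ± 1.92 CPM (log2 -0.39 ± 0.04, adjusted p = 6.63e-10, and -0.26 ± 0.04, adjusted p = 2.26e-06). On chromosome 5, 84.1% of 656 tested genes were lower with shAHR#2 and 79.6% with shAHR#3. The 30 genes around APC had medians of -0.31 and -0.27, beside its own -0.39 and -0.26. The part of the neighbourhood in the fall of APC was not tested, and TCF7, also on chromosome 5, was not called lower.

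Among the tested members other than WNT11, whose control had 3 counts in all, TCF7L1 showed the largest change with each hairpin. TCF7L1 (chr2:85133392-85310387), also known as TCF3 and mostly a repressor at TCF sites, measured 1.58, 2.15 and 1.16 CPM with PLKO-GFP, 9.39, 9.38 and 8.35 CPM with shAHR#2, and 11.9, 10.6 and 11.9 CPM with shAHR#3. No groups overlapped, and the lowest shAHR library stood far above the highest control library. Its rise was 5.52-fold with shAHR#2 (log2 2.46 ± 0.16, adjusted p = 4.85e-16) and 7.00-fold with shAHR#3 (log2 2.81 ± 0.15, adjusted p = 4.61e-18). The 39 genes tested within 5 Mb of TCF7L1 had medians of -0.13 and -0.02, against its own 2.46 and 2.81.

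The other 3 factors of the family behaved differently from TCF7L1 in size. TCF7L2 (chr10:112950247-113167678), the most abundant per length at 7.95 ± 0.473 CPM per kilobase in the control, measured 52.0, 51.5 and 57.2 CPM, then 51.3, 53.3 and 47.3 CPM, then 49.8, 52.1 and 52.1 CPM in the same group order. Its groups overlapped, and its log2 fold changes of -0.08 ± 0.05 and -0.06 ± 0.05 did not pass (adjusted p = 0.175 and 0.327). LEF1, mostly an activator, rose with shAHR#2 from 7.15 ± 0.428 to 9.93 ± 1.76 CPM (log2 0.48 ± 0.13, adjusted p = 0.00117) and measured 7.47 ± 1.09 CPM with shAHR#3 (adjusted p = 0.699). TCF7, the factor called TCF1 in T cells, had means of 3.43 ± 0.463, 4.39 ± 0.179 and 2.75 ± 0.241 CPM. Its log2 fold changes of 0.35 and -0.32 did not pass against PLKO-GFP with either hairpin (adjusted p = 0.0629 and 0.121). The genes tested within 5 Mb had negative medians around all 3: -0.41 and -0.09 for TCF7L2, -0.34 and -0.21 for LEF1, and -0.45 and -0.22 for TCF7. Per kilobase, TCF7L1 stood at 0.368 ± 0.111 CPM in the control, next to TCF7 at 0.340 ± 0.0459 and within its spread. With shAHR#2 it reached 2.04 ± 0.134 CPM per kilobase, within the spread of LEF1 at 1.85 ± 0.328, and with shAHR#3 it reached 2.59 ± 0.173, above LEF1 at 1.39 ± 0.203.

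**Figure D3:**
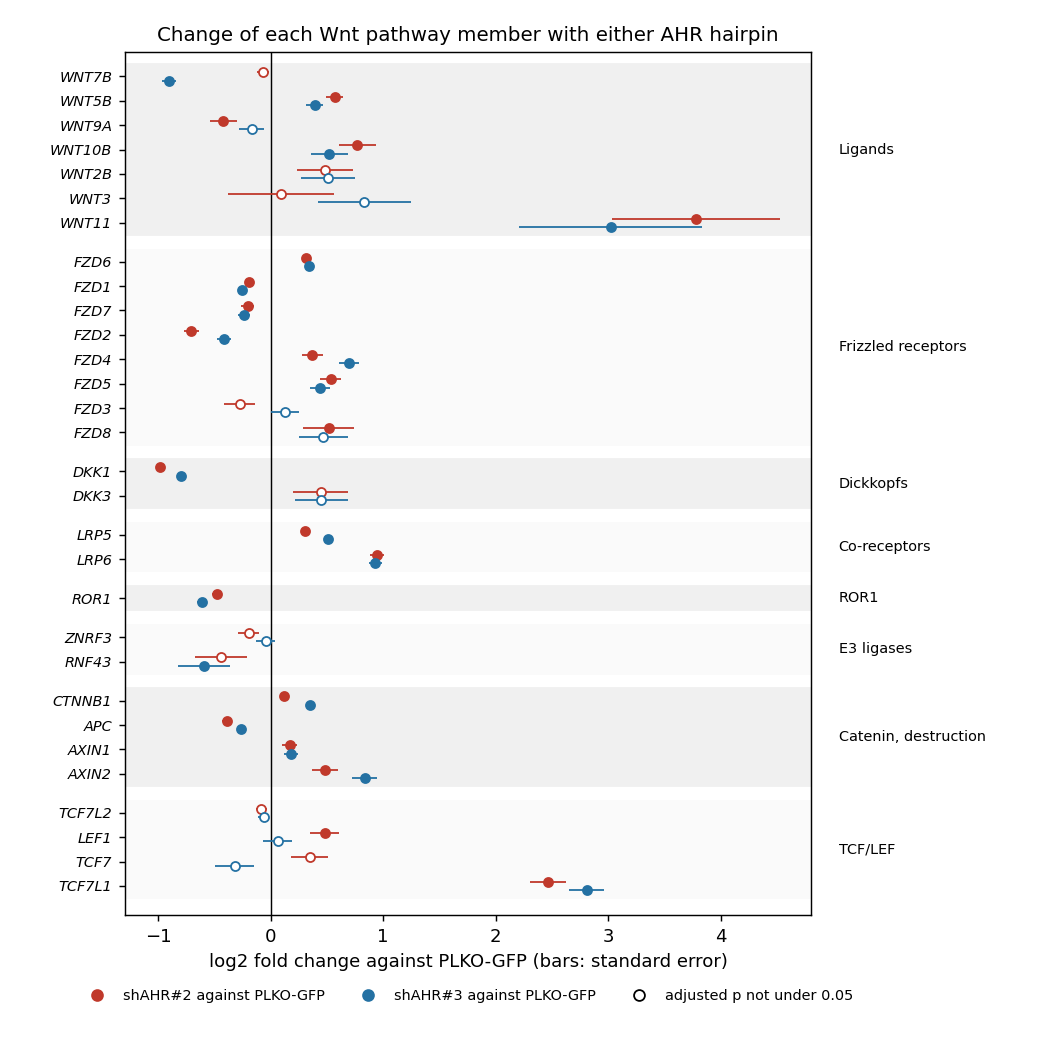
Log2 fold change of each tested member against PLKO-GFP with shAHR#2 (red) and shAHR#3 (blue), with the standard error as a bar and open points where the adjusted p was not under 0.05. TCF7L1 stands at 2.46 and 2.81 and WNT11, from 3 control counts in all, has the widest bars, while the other members lie between -0.98 and 0.95.

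The levels of 13 members differed between the hairpins themselves, 9 higher and 4 lower with shAHR#3, against a background of 42.3% of all genes (21.9% higher and 20.4% lower). None of them was called at 2-fold or more, a size reached by 3.71% of all genes, and the library ranges of 14 members were apart, beside 49.6% of all genes. WNT7B differed most (log2 -0.84 ± 0.06, adjusted p = 2.19e-14), followed by TCF7 at -0.67 ± 0.17 (adjusted p = 0.00155) and LEF1 at -0.41 ± 0.12 (adjusted p = 0.00663). The LEF1 libraries overlapped, and its call was lost without shAHR#2 replicate 1 (log2 -0.33, adjusted p = 0.0663) or shAHR#3 replicate 1 (log2 -0.31, adjusted p = 0.065). CTNNB1 (0.23 ± 0.03, adjusted p = 9.26e-10), AXIN2 (0.35 ± 0.11, adjusted p = 0.00749) and LRP5 (0.21 ± 0.03, adjusted p = 3.1e-06) were higher with shAHR#3. DKK1 was also higher with shAHR#3 (0.19 ± 0.03, adjusted p = 2.22e-05), beside a median of 0.23 over its 23 neighbours. TCF7L1 was 0.34 ± 0.11 higher (adjusted p = 0.0136), a call lost without shAHR#2 replicate 3 (log2 0.29, adjusted p = 0.0675). LRP6 differed by -0.02 ± 0.05 (adjusted p = 0.838).

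**Figure D4:**
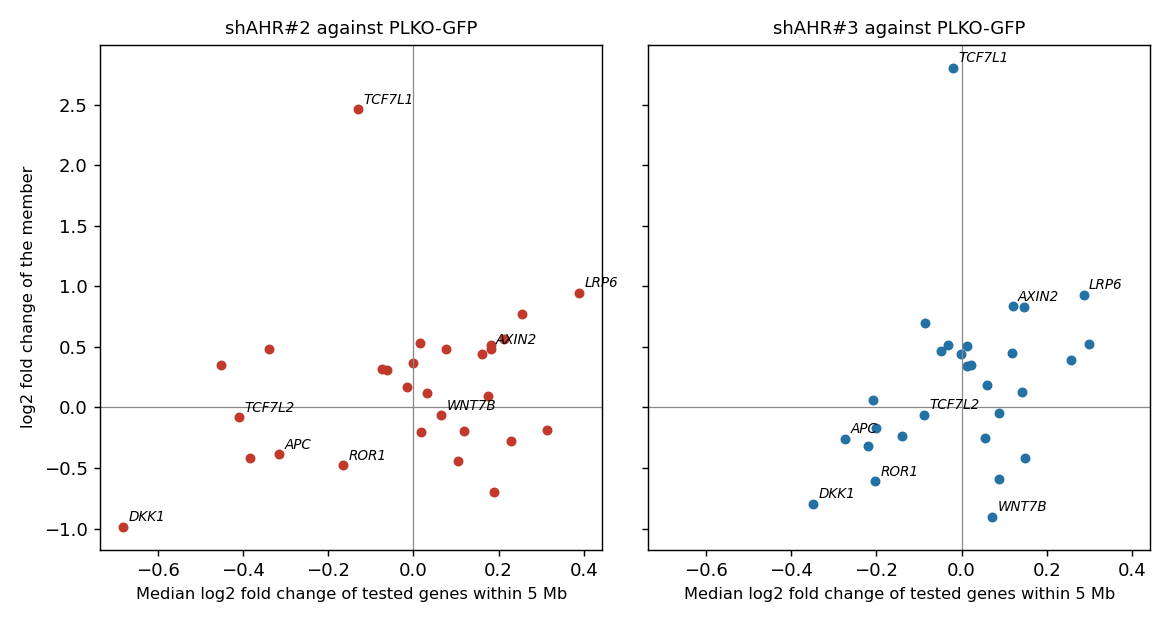
Log2 fold change of each tested member except WNT11 (vertical axis) against the median log2 fold change of the genes tested within 5 Mb of it (horizontal axis), for shAHR#2 (left) and shAHR#3 (right). DKK1 and APC sit at negative values and LRP6 at positive values on both axes, while TCF7L1 rose among neighbours with medians of -0.13 and -0.02 and WNT7B fell with shAHR#3 where the neighbours' median was 0.07.

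The other genes of the pathway were taken from a fixed list of 61, of which 46 were tested. With shAHR#2, 31 of them passed (15 higher and 16 lower), and with shAHR#3, 28 passed (13 higher and 15 lower), shares of 67.4% and 60.9% beside 65.8% and 54.4% of all genes. Between the hairpins 25 passed (54.3%, beside 42.3% of all genes). Their median log2 fold changes were 0.04 and 0.03. The 46 include NKD1, which passed the count minimum only through the shAHR groups. Receptors of the R-spondins, secreted proteins that boost Wnt signals by holding off RNF43 and ZNRF3, were listed with 3 genes, of which LGR4 and LGR5 were tested and rose with each hairpin. LGR6 was untested, with totals of 13, 4 and 11 counts in the 3 groups. LGR4 went from 171 ± 1.80 CPM to 347 ± 9.05 and 316 ± 6.62 CPM (log2 1.02 ± 0.03, adjusted p = 1.67e-27, and 0.89 ± 0.03, adjusted p = 3.68e-25). LGR5 went from 1.58 ± 0.557 to 4.76 ± 0.188 and 2.56 ± 0.486 CPM (log2 1.57 ± 0.21, adjusted p = 3.44e-08, and 0.68 ± 0.23, adjusted p = 0.0107). All 4 R-spondin genes were untested, with at most 5 counts in any group. KREMEN1, a receptor through which Dickkopf proteins remove LRP6 from the surface, rose from 6.78 ± 0.0949 to 19.98 ± 1.29 and 17.6 ± 1.12 CPM (log2 1.56 ± 0.09, adjusted p = 3.94e-17, and 1.37 ± 0.09, adjusted p = 3.73e-15).

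PORCN, which attaches the lipid that Wnts need for secretion, fell from 9.68 ± 1.48 to 6.36 ± 0.536 and 4.90 ± 0.275 CPM (log2 -0.60 ± 0.12, adjusted p = 7.05e-05, and -0.98 ± 0.13, adjusted p = 2.46e-08), while the carrier gene WLS did not pass. These were the tested genes of the secretion group, and like SP5 below they are named after their values were seen. DAAM1, a formin of the planar polarity branch, fell from 38.3 ± 1.53 to 16.6 ± 1.74 and 21.3 ± 1.00 CPM (log2 -1.20 ± 0.07, adjusted p = 6.56e-17, and -0.85 ± 0.07, adjusted p = 3.9e-13). Of the 11 genes of Dishevelled and the destruction complex, all tested, 1 rose and 5 fell with shAHR#2, and 2 rose and 3 fell with shAHR#3. Of the 10 tested nuclear partners of beta-catenin and TCFs, 1 rose and 6 fell with each hairpin. The shares called were 54.5% and 45.5% in the first group and 70% with each hairpin in the second. Beside them stand 65.8% and 54.4% of all genes. Among the nuclear partners, the co-repressor TLE2 had 18, 22 and 15 counts with PLKO-GFP, 6, 3 and 7 with shAHR#2, and 22, 11 and 21 with shAHR#3. TLE2 was lower with shAHR#2 only (log2 -1.56 ± 0.44, adjusted p = 0.00211) and overlapped the control with shAHR#3 (adjusted p = 0.868).

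Common TCF target genes did not move one way. Of 8 tested, 4 rose and 1 fell with shAHR#2, and 4 rose and 2 fell with shAHR#3, with medians of 0.25 and 0.08. The shares called were 62.5% and 75%, beside 65.8% and 54.4% of all genes. NKD1, a feedback inhibitor, had 0, 0 and 2 counts with PLKO-GFP, 10, 8 and 15 with shAHR#2, and 15, 14 and 13 with shAHR#3. Its ratio of depth-scaled group totals was 19.0 with shAHR#2 (95% counting interval 4.85 to 163) and 20.3 with shAHR#3 (5.28 to 173). The edgeR test gave log2 fold changes of 4.01 (adjusted p = 1.56e-05) and 4.10 (adjusted p = 8.75e-06). Like WNT11, NKD1 passed the count minimum only through the shAHR groups, and its control had 2 counts in all. These intervals too cover counting error only. NKD1 is 1 of the 4 that rose with each hairpin, and it was tested only because its shAHR counts were high. AXIN2, counted among the members, was higher with each hairpin, whereas DKK1 was lower. SP5, another widely used TCF target, measured at 1.56, 1.39 and 1.59 CPM in the 3 groups and did not pass (adjusted p = 0.623 and 0.943).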

How the data were processed

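RNA was sequenced from 9 MDA-MB-231 libraries. The authors made stranded mRNA libraries, read them from 1 end on a NextSeq instrument, aligned the reads with STAR to GRCh38.p13 and deposited whole-number read counts per gene without normalization. The submitters' processing notes also name FastQC, featureCounts and Subread. Versions, the annotation release and the strand setting are not given in the sources used here. This matters for the 11 tested members that have an exon overlapping one on the other strand, DKK1, FZD4, FZD6, LEF1 and WNT11 among them.

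The counts were analysed with R 4.3.3 and edgeR 4.0.16. The filterByExpr function (minimum count 10, minimum total 15) kept 14274 genes, which held 99.9% of all counts. TMM scaling and 1 quasi-likelihood model across the 3 groups followed, without covariates, and each hairpin was compared with PLKO-GFP and the hairpins with each other. Standard errors came from the log2 fold change and its F statistic. Members were named with group means where tested; values by library were given for those called at 2-fold or more, for DKK1 and WNT5A and for the most abundant member of each role, and LRP6 and AXIN2 were added after their values were seen. Other pathway genes were named where called at 2-fold or more. Levels of different genes were compared per kilobase of exons merged from GENCODE release 44, which also gave positions and matched 60507 of 60649 identifiers. Medians within 5 Mb were added after the data were seen. Members and lists were chosen with earlier results of these data known.

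Replicates of a group differed beyond sampling noise (chi-square divided by its degrees of freedom, 1.76 to 4.24). Ratios at low counts have exact 95% intervals on the pooled counts of each group, which leave out this spread. The limit that a count of 0 allows is 3 counts per library. The fit was tested on simulated data in which 200 genes changed by 2-fold or more in shAHR#2. That setting could not check the scaling where most genes move, nor the calling of smaller changes. Alternatives were DESeq2 1.42.0, its size factors, no filter, fitting only the groups compared, a replicate block, a 2-fold minimum, and leaving out each library. Promoter windows came from RefSeq. The study's other experiments were not analysed here. The summed level of the leukocyte marker list is not reported here.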

Additional observations from a re-analysis of the deposited data

Results flagged for a closer look

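The levels of 13 members, and of 4 other pathway genes called at 2-fold or more against PLKO-GFP, differed in the direct comparison of shAHR#3 with shAHR#2. The 13 are 43.3% of the 30 tested members, near the 42.3% of all genes called in this comparison. Differences are log2 fold changes from edgeR with adjusted p under the threshold, positive where shAHR#3 was higher. Among the ligands and receptors, WNT7B differed by -0.84, FZD2 by 0.29, FZD3 by 0.40, FZD4 by 0.33, LRP5 by 0.21 and ROR1 by -0.13. Of the antagonists DKK1 differed by 0.19. CTNNB1 differed by 0.23, AXIN2 by 0.35 and APC by 0.13, and among the factors LEF1 differed by -0.41, TCF7 by -0.67 and TCF7L1 by 0.34. Of the other pathway genes, LGR4 differed by -0.14, LGR5 by -0.89, TLE2 by 1.49 and DAAM1 by 0.35. Of the other genes named, AHR differed by 0.19, PORCN by -0.38, LYZ by -0.78 and CDH1 by 1.20. The mesenchymal genes VIM, FN1 and SPARC differed by -0.22, -0.49 and 1.13.

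FZD3 lost its call without shAHR#2 replicate 1 (0.37, adjusted p = 0.06) or shAHR#3 replicate 2 (0.34, adjusted p = 0.0647), and ROR1 without shAHR#2 replicate 3 (-0.11, adjusted p = 0.0721). APC lost it without shAHR#2 replicate 2 (0.09, adjusted p = 0.151) or shAHR#3 replicate 2 (0.11, adjusted p = 0.0813).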

How the results depend on the processing

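Of the members' values under the alternatives, 1203 kept direction and side of the threshold, 22 fell short of it, 11 newly passed and 22 turned direction. A 2-fold minimum left 2, 2 and 0 member calls (shAHR#2, shAHR#3 and shAHR#3 against shAHR#2) and 6, 2 and 1 among the other pathway genes. Leaving out single libraries gave 18 to 23, 19 to 20 and 11 to 13 member calls, and 31 to 32, 26 to 28 and 23 to 26 among the other pathway genes. DESeq2 gave 20, 19 and 13 member calls. The replicate block gave 21, 20 and 13 member calls and 31, 28 and 25 among the other pathway genes, the same as without it. Deviations of libraries with the same replicate number had correlations of 0.0031 to 0.058, beside -0.068 to 0.023 for different numbers, and in 15 of 18 cases a library correlated best with its own number in another group. All stayed under the 0.1 set for pairing, so the numbers were not taken to pair the samples. A limit on size does not show that libraries with the same number are unrelated.

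Every value that turned direction was one that had not passed. Without single libraries, the shAHR#3 against shAHR#2 difference ranged from -0.11 to 0.20 for WNT2B, -0.11 to 0.021 for FZD7, -0.16 to 0.041 for FZD8, -0.15 to 0.18 for DKK3, -0.053 to 0.018 for LRP6, -0.028 to 0.088 for AXIN1 and -0.022 to 0.058 for TCF7L2. DKK3 was at -0.00043 with DESeq2. Against PLKO-GFP, WNT3 ranged from -0.21 to 0.44 with shAHR#2, and with shAHR#3 FZD3 ranged from -0.010 to 0.24, ZNRF3 from -0.097 to 0.058 and LEF1 from -0.040 to 0.17. The cause was not tested.

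Calls gained when 1 library was left out were WNT2B with both hairpins without PLKO-GFP replicate 1 (0.70 and 0.72), FZD3 with shAHR#2 without PLKO-GFP replicate 3 (-0.41), TCF7 with shAHR#2 without PLKO-GFP replicate 2 (0.46), DKK3 with shAHR#2 without shAHR#2 replicate 3 (0.60), ZNRF3 with shAHR#2 without PLKO-GFP replicate 1 (-0.24), PLKO-GFP replicate 3 (-0.25), shAHR#2 replicate 2 (-0.26) or shAHR#3 replicate 3 (-0.20), and WNT9A between hairpins without shAHR#2 replicate 2 (0.36). WNT5B passed between the hairpins with DESeq2 size factors (adjusted p = 0.0469). WNT11 was filtered out when only PLKO-GFP and 1 hairpin were fitted. Depth limits members with few counts: WNT5A, WNT11 and WNT3 rest on at most 50 counts per group.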
